A study of Mus musculus with 6 samples.

Results

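The 9 genes of GABA synthesis and interneuron identity were followed in the medial prefrontal cortex of mice on 2 diets. They were listed by gene name, with earlier results of these data known: Gad1, Gad2, Slc32a1, Pvalb, Calb2, Lhx6, Erbb4, Adarb2 and Dlx1. They are 9 of the 18194 genes to which the platform annotation assigns at least 1 probe set of a single gene symbol, and they hold 17 such probe sets, a probe set being a group of short probes that read the same transcript. All 6 mice were males of the inbred strain 129S1/SvImJ (S1), aged 8 to 10 weeks, and all had been through fear extinction training, the repeated showing of a feared cue without its outcome. Mice 1, 5 and 9 ate the control diet, and mice 3, 7 and 11 a diet labelled ZnR and described as a zinc diet, so n was 3 per diet. The tissue of both hemispheres was dissected 2 h after the training. No untrained mice were analysed here, so the values compare the diets among trained mice only. The comparison asks how transcripts in ZnR mice differed from those in controls.

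GABA, the main inhibitory transmitter of the cortex, is made from glutamate by a pair of glutamic acid decarboxylases, encoded by Gad1 and Gad2. Slc32a1 encodes the transporter that loads GABA into synaptic vesicles. Cortical inhibitory interneurons arise in the ventral forebrain of the embryo under Dlx transcription factors, and classes of them are told apart in the adult by proteins such as parvalbumin (Pvalb) and calretinin (Calb2). The Gad genes and Slc32a1 are not confined to cortical interneurons, because the projection neurons of the striatum also use GABA. In bulk tissue, a change in the number of cells of a type and a change in RNA per cell cannot be told apart.

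The arrays had medians between 4.458 and 4.524 log2 units over all probe sets. The array's own 18S ribosomal RNA probe sets were dim in control mouse 1 (mean 9.092) and ZnR mouse 3 (8.44), with 10.88 to 12.38 elsewhere, and these arrays, called the low-18S pair here, were treated as a possible batch. The tissue label was checked against marker lists. Of 10 measured markers of cortical excitatory neurons, 5 fell in ZnR mice and 5 did not pass, and of 12 measured markers of striatal projection neurons, 4 rose and 8 did not pass, where 1.92% of the 11749 genes tested, each by its brightest tested probe set, passed in either direction. The striatal markers were above the detection filter in both diets, so the dissected tissue of control mice held such transcripts too.

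No member passed the test for a difference between the diets. Among the members, Slc32a1 came closest, at 1.47-fold higher in ZnR mice (adjusted p = 0.0607). Gad1, Gad2, Dlx1 and Lhx6 were also higher on average, while Pvalb, Calb2 and Adarb2 were lower on average. Of the 17 probe sets, 11 had a log2 value above 4 on at least 3 arrays and were tested. They stand for 8 of the 9 genes. The test was limma's moderated linear model over 25381 probe sets, 2-sided, with Benjamini-Hochberg adjustment over all of them and a threshold of 0.05. It called 0 of the 11, against 1.47% of all probe sets tested, and 7 of the 11 had an unadjusted p under 0.05, against 17.0% of all. ZnR mice lay entirely above controls in 6 of the 11, where the same held for 13.1% of all probe sets, and entirely below in 0 of the 11, against 10.6% of all. The median difference was 0.36 log2 units over the 11 and 0.02 over all. Since the filter decided which member probe sets were tested, these shares describe the 11 alone.

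**Figure D1:**
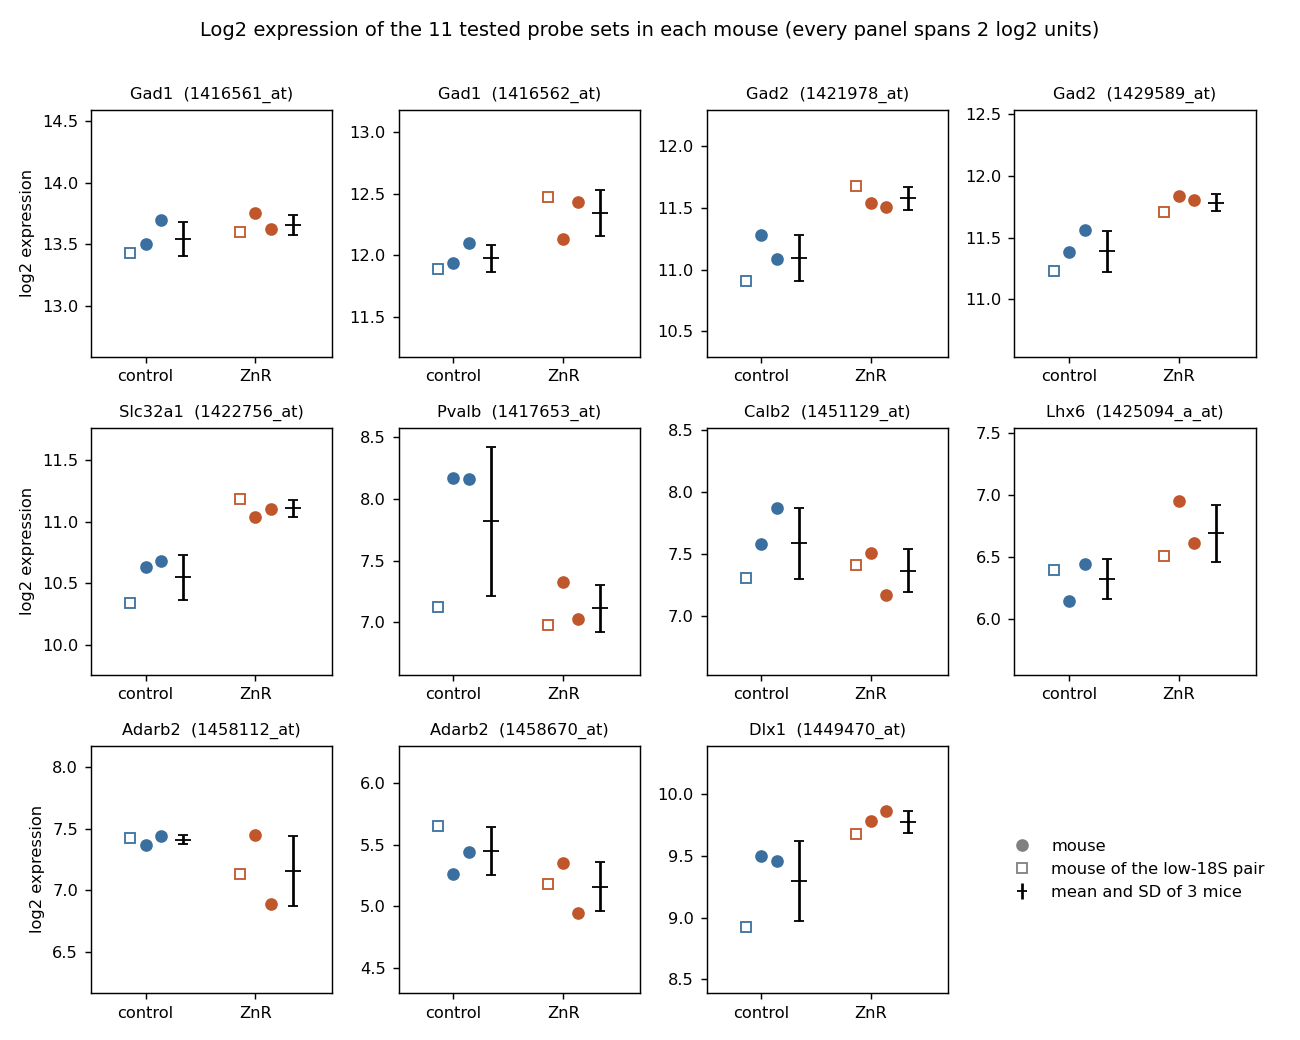
Log2 expression (vertical axis) in each control and ZnR mouse for the 11 tested probe sets; points are mice, open squares are the low-18S pair, and bars give the mean and SD of 3 mice. Slc32a1 and Gad2 were above the control range in every ZnR mouse, while for Pvalb control mouse 1 (7.12) lay among the ZnR mice (6.98 to 7.33) and the other controls at 8.16 and 8.17.

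Slc32a1, the vesicular GABA transporter gene, was read by 1 informative probe set, 1422756_at. Its log2 values were 10.34, 10.63 and 10.68 in control mice 1, 5 and 9, and 11.18, 11.04 and 11.10 in ZnR mice 3, 7 and 11. Every ZnR mouse was higher than every control, and control mouse 1 was the lowest. The means were 10.55 ± 0.18 and 11.11 ± 0.07 (SD, n = 3 per diet), a log2 difference of 0.56 ± 0.11 SE with a 95% interval of 0.30 to 0.81 (limma adjusted p = 0.0607). On the linear scale that interval runs from 1.23-fold to 1.76-fold. The low-18S pair alone gave 0.84 and the other 4 mice 0.42. It stayed above 0 in all 14 alternative settings, from 0.42 to 0.62, with adjusted p from 0.0126 to 0.213. The other 3 probe sets annotated to Slc32a1 stayed under the filter, between 2.45 and 3.58 on all arrays, so no second probe set tests this difference.

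Gad2, the decarboxylase found at nerve terminals, was read by a pair of tested probe sets with similar differences. Probe set 1421978_at measured 10.91, 11.28 and 11.09 in control mice 1, 5 and 9 and 11.68, 11.54 and 11.51 in ZnR mice 3, 7 and 11. Its difference was 0.48 ± 0.11 SE (95% interval 0.22 to 0.75, limma adjusted p = 0.0895), or 1.40-fold. Both this probe set and the next separated the diets, with no control mouse reaching a ZnR value. Probe set 1429589_at measured 11.23, 11.38 and 11.56 in controls and 11.71, 11.84 and 11.80 in ZnR mice, a difference of 0.39 ± 0.11 SE (95% interval 0.15 to 0.64, limma adjusted p = 0.119). The low-18S pair alone gave 0.77 and 0.47, and the other 4 mice 0.34 and 0.35.

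Gad1, the decarboxylase spread through the neuron, was read by 2 tested probe sets, of which 1 overlapped between the diets and 1 did not. Probe set 1416561_at, the brighter one, measured 13.43, 13.50 and 13.70 in control mice 1, 5 and 9 and 13.60, 13.75 and 13.62 in ZnR mice 3, 7 and 11. The diets overlapped, and the difference was 0.12 ± 0.10 SE (95% interval -0.12 to 0.35, limma adjusted p = 0.615). It was 0.06 without control mouse 1 and 0.19 without control mouse 9. Probe set 1416562_at measured 11.89, 11.94 and 12.10 in controls and 12.47, 12.13 and 12.43 in ZnR mice. Here ZnR mouse 7 lay just above the highest control while mice 3 and 11 lay further up, and the difference was 0.36 ± 0.12 SE (95% interval 0.09 to 0.64, limma adjusted p = 0.171). The gap between the 2 probe sets, taken within each mouse, was -1.54, -1.55 and -1.60 in controls and -1.13, -1.62 and -1.20 in ZnR mice. It differed by 0.25 ± 0.15 SE between the diets (2-sided exact permutation p = 0.4, adjusted 0.4 over 3 gaps between probe sets that were computed), where the 20 relabellings of 3 against 3 mice allow no p under 0.1. The diets overlapped in this gap through ZnR mouse 7. Of the other gaps, Slc32a1 minus Pvalb differed by 1.26 ± 0.28 SE between the diets. Slc32a1 minus the brighter Gad1 probe set differed by 0.44 ± 0.11 SE. Each of these 2 gaps had a 2-sided exact permutation p = 0.1, the smallest possible, and 0.15 after adjustment. Slc32a1 and Pvalb had the highest and the lowest difference of all members in these same data. The gap between them is therefore no separate evidence. The brighter Gad1 probe set had the smaller of the Gad1 differences, and the gap from Slc32a1 to the dimmer one was not computed.

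**Figure D2:**
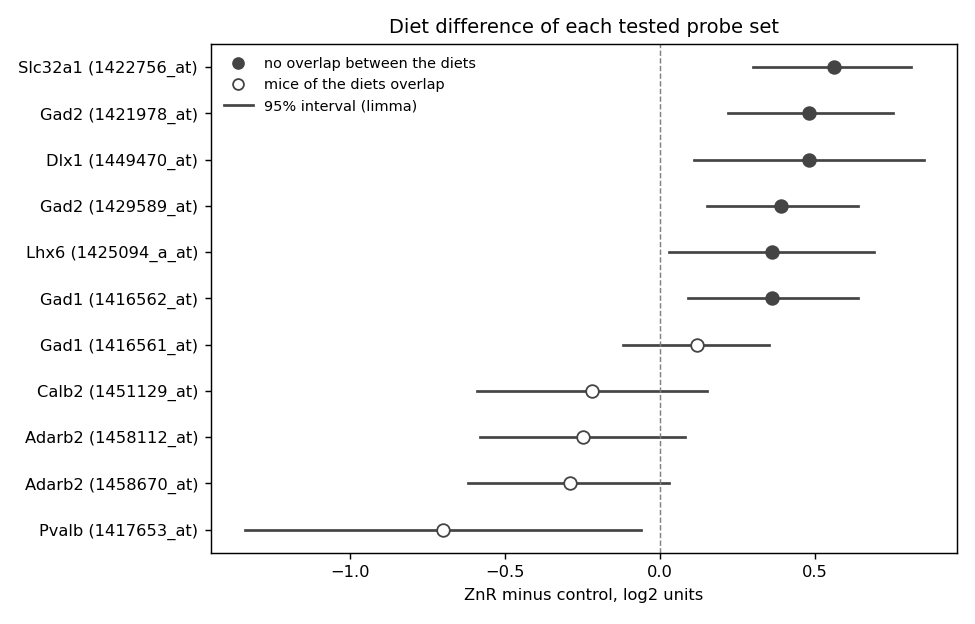
ZnR minus control in log2 units (horizontal axis) for the 11 tested probe sets, with 95% intervals from limma; filled points mark probe sets whose control and ZnR mice did not overlap. The 7 intervals that leave out 0 are those of Slc32a1, Gad2 (2 probe sets), Dlx1, Lhx6, 1 Gad1 probe set and Pvalb, the last below 0 at -0.70.

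The stretches before the starts of these genes are shown because Slc32a1, Gad2 and Gad1 were higher on average in the same mice while Pvalb was lower on average. The set of RefSeq (GRCm38.p6) starts used here covered 8 of the 9 members, all but Calb2. On chromosome 2 lie 5 of the 9 genes: Gad1, Gad2, Slc32a1, Lhx6 and Dlx1. Each line gives the 250 bases before the start, 5′ to 3′ on the gene's strand, with CG dinucleotides in capitals. The windows are chr2:158610508-158610757 (plus strand), chr2:22622077-22622326 (plus), chr2:70561879-70562128 (plus) and, for the more upstream of 2 Pvalb starts, chr15:78206401-78206650 (minus).
Slc32a1: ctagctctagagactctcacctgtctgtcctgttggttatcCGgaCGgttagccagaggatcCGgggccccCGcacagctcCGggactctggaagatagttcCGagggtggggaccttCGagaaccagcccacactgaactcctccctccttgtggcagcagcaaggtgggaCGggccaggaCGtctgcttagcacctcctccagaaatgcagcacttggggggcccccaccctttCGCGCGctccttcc
Gad2: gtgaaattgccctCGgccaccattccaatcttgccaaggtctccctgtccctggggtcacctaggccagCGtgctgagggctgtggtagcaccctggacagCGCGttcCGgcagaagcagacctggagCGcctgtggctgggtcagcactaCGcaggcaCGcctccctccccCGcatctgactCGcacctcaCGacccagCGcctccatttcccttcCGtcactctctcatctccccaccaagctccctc
Gad1: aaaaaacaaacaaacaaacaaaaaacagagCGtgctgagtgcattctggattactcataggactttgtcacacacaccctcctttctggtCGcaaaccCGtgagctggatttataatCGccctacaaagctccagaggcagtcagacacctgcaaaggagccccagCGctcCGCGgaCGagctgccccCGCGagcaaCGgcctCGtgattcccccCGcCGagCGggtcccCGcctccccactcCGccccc
Pvalb: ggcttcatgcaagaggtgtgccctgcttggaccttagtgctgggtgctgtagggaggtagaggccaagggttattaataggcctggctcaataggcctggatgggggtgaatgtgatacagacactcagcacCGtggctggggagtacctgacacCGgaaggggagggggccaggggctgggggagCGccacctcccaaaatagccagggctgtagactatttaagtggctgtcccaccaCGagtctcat
CG occurs 12 times before Slc32a1, 13 times before Gad2, 17 times before Gad1 and 4 times before this Pvalb start, where the median over 32536 different windows of the same length was 6. The second Pvalb start has 23, so a low CG count belongs to the upstream start only. The motif TAATTA, which reads the same on both strands and is a core that many homeodomain proteins bind, is in none of these 4 windows, is in that of Adarb2, and is in 4.84% of all windows. The GC box GGGCGG, sought on both strands, is before Gad1, Adarb2 and 2 of 3 Lhx6 starts, and in 33% of all windows. These counts describe letters and were not tied to the expression values by any test.

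Pvalb, which encodes the calcium-buffering protein of fast-spiking interneurons, had the largest difference among the members and also the largest spread. Probe set 1417653_at measured 7.12, 8.17 and 8.16 in control mice 1, 5 and 9 and 6.98, 7.33 and 7.03 in ZnR mice 3, 7 and 11. Control mice 5 and 9 were above all ZnR mice, whereas control mouse 1 lay between them. The means were 7.82 ± 0.60 and 7.11 ± 0.19 (SD, n = 3 per diet), a difference of -0.70 ± 0.28 SE (95% interval -1.34 to -0.06, limma adjusted p = 0.255), or 1.63-fold lower. The low-18S pair alone gave -0.15 and the other 4 mice -0.98. Without control mouse 1 it was -1.05 and passed the threshold (limma adjusted p = 0.0402, where 0.398% of all probe sets passed), and without control mouse 5 or 9 it was -0.53 with adjusted p up to 0.517. The value of Pvalb therefore turned on which control mice were included.

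Calb2 encodes calretinin, a calcium-binding protein of interneurons that largely target other interneurons. Its probe set 1451129_at measured 7.30, 7.58 and 7.87 in control mice 1, 5 and 9 and 7.41, 7.51 and 7.17 in ZnR mice 3, 7 and 11. The diets overlapped and the sign differed between the low-18S pair (0.11) and the remaining 4 mice (-0.38). The overall difference was -0.22 ± 0.16 SE (95% interval -0.59 to 0.15, limma adjusted p = 0.541), and without control mouse 9 it was -0.08.

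Adarb2, an RNA-editing enzyme relative that marks interneurons of the caudal ganglionic eminence, was read by 2 tested probe sets that were both lower on average. Probe set 1458112_at measured 7.42, 7.37 and 7.44 in controls and 7.13, 7.45 and 6.89 in ZnR mice 3, 7 and 11. ZnR mouse 7 was level with the controls and the other ZnR mice were lower, for a difference of -0.25 ± 0.14 SE (95% interval -0.58 to 0.08, limma adjusted p = 0.422). Probe set 1458670_at measured 5.65, 5.26 and 5.44 in controls and 5.18, 5.35 and 4.95 in ZnR mice, a difference of -0.29 ± 0.14 SE (95% interval -0.62 to 0.03, limma adjusted p = 0.344). On both probe sets ZnR mouse 11 was the lowest of all mice and ZnR mouse 7 lay within the control range or above it. Without ZnR mouse 11 the differences were -0.12 and -0.19. The third probe set, 1421300_at, stayed between 2.62 and 2.85 and was not tested.

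Dlx1, a homeodomain factor that directs forebrain cells toward the GABA fate, separated the diets. Probe set 1449470_at measured 8.92, 9.50 and 9.46 in control mice 1, 5 and 9 and 9.68, 9.78 and 9.86 in ZnR mice 3, 7 and 11. The difference was 0.48 ± 0.16 SE (95% interval 0.11 to 0.85, limma adjusted p = 0.18). Control mouse 1 was the low point, and without it the difference was 0.30 (adjusted p = 0.23).

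Lhx6, a factor of interneurons from the medial ganglionic eminence, which give rise to the parvalbumin and somatostatin classes, went the other way from Pvalb on average. Probe set 1425094_a_at measured 6.39, 6.14 and 6.44 in control mice 1, 5 and 9 and 6.51, 6.95 and 6.61 in ZnR mice 3, 7 and 11. The diets did not overlap, though ZnR mouse 3 was only just above control mouse 9. The difference was 0.36 ± 0.14 SE (95% interval 0.03 to 0.69, limma adjusted p = 0.25), and 0.23 without ZnR mouse 7. The second Lhx6 probe set, 1422262_a_at, lay on both sides of the filter level, from 3.63 to 4.36, and was not tested.

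Erbb4, the neuregulin receptor of many cortical interneurons, could not be assessed. Its probe set 1427783_at measured 1.99 to 2.30 on all 6 arrays, below the filter, which gives no information on the gene's level in this tissue. Of 6 measured neuregulin ligands and other ErbB receptors, 0 passed the test. Nrg3, a neuregulin, measured -0.63 ± 0.19 SE (limma adjusted p = 0.143) and Egfr 0.35 ± 0.09 SE (adjusted p = 0.114).

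Genes that supply, take up or break down GABA were measured alongside. None of the 8 measured passed, 6 were higher on average, and the median was 0.24 against 0.03 over the 11749 genes tested. Abat, which breaks GABA down, measured 11.64, 11.73 and 11.73 in controls and 12.07, 12.13 and 11.99 in ZnR mice. That is a difference of 0.37 ± 0.08 SE with no overlap (limma adjusted p = 0.0821). Phgdh, the first enzyme of serine synthesis, measured 0.40 ± 0.09 SE (adjusted p = 0.0735). Pdxk, which makes the vitamin cofactor used by the decarboxylases, measured 0.31 ± 0.08 SE (adjusted p = 0.111), while the astrocyte GABA transporter gene Slc6a11 measured 0.38 ± 0.15 SE with overlapping diets.

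Among 12 other transcription factors of interneurons, 0 passed, 8 were higher on average and 4 lower, with a median of 0.17. In the remaining measured Dlx genes ZnR mice also lay entirely above controls, as in 16.5% of all genes. Dlx2 measured 0.57 ± 0.12 SE (limma adjusted p = 0.0636), Dlx5 0.50 ± 0.11 SE (adjusted p = 0.0722) and Dlx6 0.77 ± 0.17 SE (adjusted p = 0.07). Dlx2, the neighbour of Dlx1 in the genome, was 8.69, 9.03 and 8.91 in control mice 1, 5 and 9 and 9.31, 9.57 and 9.47 in ZnR mice 3, 7 and 11. Lhx8, a factor of ventral forebrain cholinergic neurons, had the widest difference of the list at 1.56 ± 0.36 SE (adjusted p = 0.0828). Zeb2 was lower on average at -0.48 ± 0.16 SE, Sox6 measured 0.07 ± 0.17 SE and Satb1 -0.23 ± 0.12 SE. These last factors act in interneurons of the medial ganglionic eminence, the class that Lhx6 and Pvalb also mark.

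Of 17 other measured markers of interneuron classes, 3 fell and 14 did not pass, 12 were lower on average, and the median was -0.27. The 3 that fell were the peptide gene Vip (from 9.79 ± 0.12 to 8.79 ± 0.19, SD, n = 3 per diet, limma adjusted p = 0.0208), the cholecystokinin gene Cck (-1.04 ± 0.08 SE, adjusted p = 0.00624) and the potassium channel gene Kcnc2 (-0.60 ± 0.11 SE, adjusted p = 0.048). Against 1.92% of all genes called, these are 3 of 17, and Cck is also made by cortical excitatory neurons. Calls in these lists rest on all 6 mice: 373 probe sets passed in all, and leaving out any 1 mouse left 1 (control mouse 5) to 109 (ZnR mouse 7). Sst, which Lhx6 interneurons make, measured -0.13 ± 0.09 SE with overlapping diets, and Npy -0.44 ± 0.10 SE with adjusted p = 0.081. Kcnc1, like Kcnc2 a potassium channel gene, measured -0.11 ± 0.12 SE with overlapping diets. The 5 that were higher on average were Syt2 (0.55), Tac1 (0.26), Reln (0.23), Nos1 (0.20) and Kit (0.19). None of them passed, and only for Kit did the diets not overlap.

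**Figure D3:**
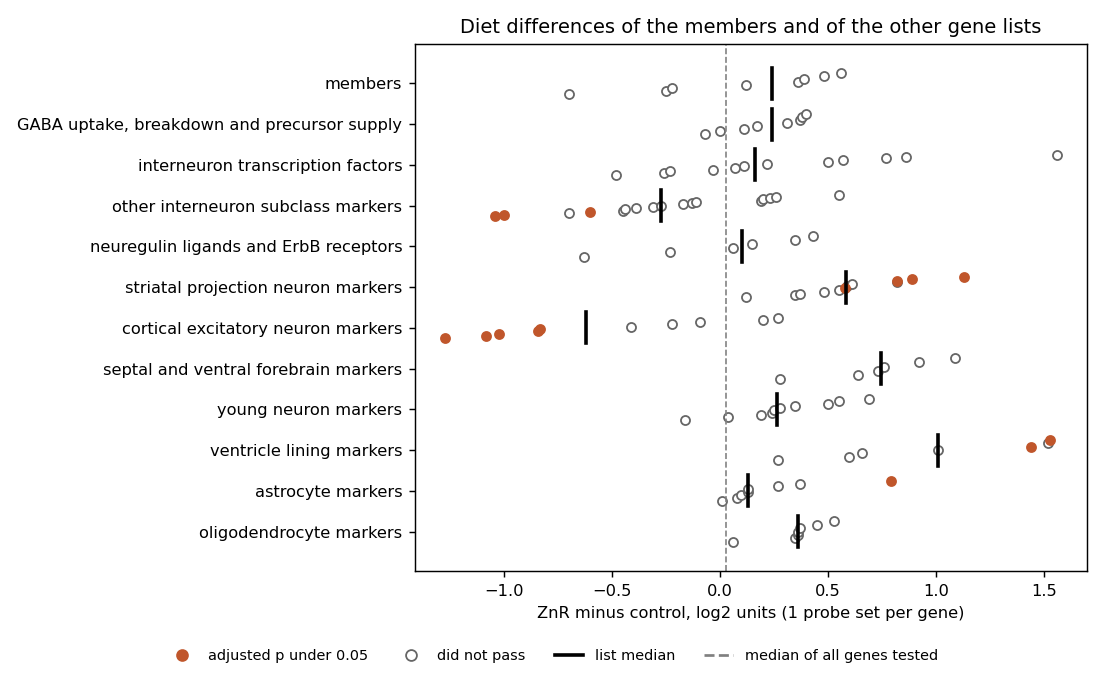
ZnR minus control in log2 units (horizontal axis) for each measured gene of the members and of 11 other lists, 1 point per gene; filled points passed the test and thick bars are list medians. The members span -0.70 to 0.56, the striatal markers lie at 0.12 to 1.13 and the excitatory markers at -1.27 to 0.27.

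Markers of striatal, septal and young neurons were also higher on average, as Slc32a1, Gad2 and Dlx1 were, and so were non-neuronal markers. The median was 1.01 over 7 ventricle-lining markers, 0.36 over 7 oligodendrocyte markers and 0.13 over 8 astrocyte markers, all of them higher on average. Of the ventricle-lining markers, Ccdc153 passed the filter only through the ZnR mice (4.11 to 4.23, against 3.06 to 3.91 in controls). Its sign was fixed by the filter. Control mouse 1 was also under the filter level for Tmem212 (3.60), Foxj1 (3.42) and Ttr (3.64). A higher average was therefore not particular to the neuron lists. Centred on all 6 mice, the oligodendrocyte list in ZnR mouse 7 was -0.19, within the controls (-0.22 to -0.14). All 12 measured striatal markers were higher on average (median 0.59), where 6770 of all 11749 genes were, and the sum of their log2 values was 112.2 to 117.4 in controls and 120.6 to 124.1 in ZnR mice. The 4 that rose, against 1.92% of all genes called in either direction, were Drd2 (0.89 ± 0.16 SE), Gpr6 (0.58 ± 0.08 SE), Isl1 (1.13 ± 0.14 SE) and Six3 (0.82 ± 0.15 SE), with limma adjusted p from 0.0214 to 0.0499. No measured striatal marker was near the floor, the lowest value being 7.07 for Six3 in control mouse 9. All 6 measured septal and ventral forebrain markers were higher on average without passing (median 0.75; summed log2 40.14 to 47.2 in controls and 47.59 to 49.2 in ZnR mice). Of 10 young neuron markers, 9 were higher on average and 0 passed (median 0.27; summed log2 95.23 to 97.55 and 98.68 to 99.99). The part of these cells in the differences of Slc32a1, Gad2 and Dlx1 was not tested.

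By their brighter probe sets, the GABA genes ordered the 3 control mice in reverse to the striatal markers and as the septal markers did. This order rests on 3 mice. The dimmer Gad1 probe set kept it, while the dimmer Gad2 probe set did not, at 10.91, 11.28 and 11.09 in control mice 1, 5 and 9. Among ZnR mice the order of the GABA genes differed from that of both lists. Centred on all 6 mice, the mean of Gad1 (brighter probe set), Gad2 (brighter probe set) and Slc32a1 was -0.34, -0.17 and -0.03 in control mice 1, 5 and 9 and 0.16, 0.20 and 0.17 in ZnR mice 3, 7 and 11. The striatal list was -0.10, -0.28 and -0.53 in the same controls and 0.46, 0.28 and 0.17 in the ZnR mice. Control mouse 1 was thus the lowest control for the GABA genes and the highest control for the striatal markers. The septal list was -0.97, -0.35 and 0.21 in controls and 0.27, 0.29 and 0.54 in ZnR mice, with control mouse 1 lowest as for the GABA genes. The young neuron list was -0.27, -0.04 and -0.13 in controls, again with control mouse 1 lowest. The ventricle-lining markers, of which 2 of 7 rose against 1.92% of all genes called in either direction, were likewise lowest in control mouse 1 at -1.02. Their part in the spread among controls was not tested.

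The genes with the profile most like that of Gad1, Gad2 and Slc32a1 over the 6 arrays were Fgfr1, Tmem176b, Egfr, Hmg20b and Vstm2l. Likeness was the root mean square distance between centred log2 values, which was 0.0323 to 0.0356 for these 5 and had a median of 0.224 over 11741 genes. Their differences ran from 0.34 to 0.38, and none passed the test (limma adjusted p from 0.114 to 0.158). For Pvalb the nearest were Plcxd2 (distance 0.1), Cux2 (0.186), Neurod1 (0.216), Kcnab3 (0.225) and Fli1 (0.225), against a median of 0.531. Plcxd2 shared the low value of control mouse 1, with 9.17, 9.98 and 10.00 in controls and 8.79, 9.21 and 9.07 in ZnR mice. Neurod1, a factor of excitatory neurons, measured -0.88 ± 0.17 SE (adjusted p = 0.0581). The genes nearest each profile were chosen for likeness over these same 6 mice. Their similar differences and shared low values follow from that choice.

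**Figure D4:**
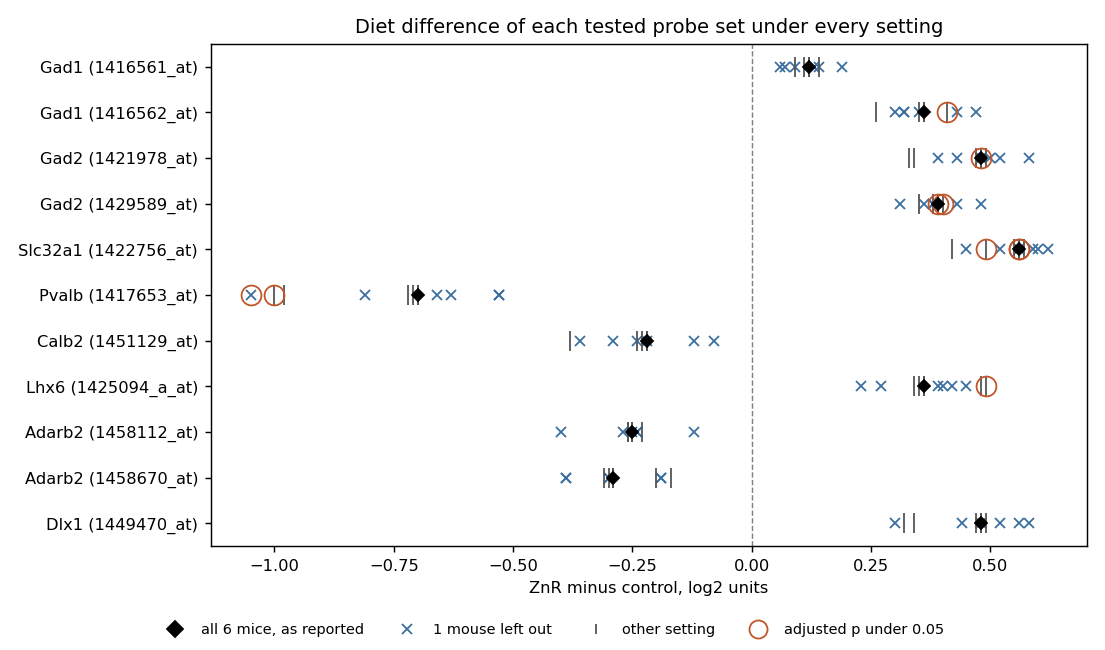
ZnR minus control in log2 units (horizontal axis) for the 11 tested probe sets with all 6 mice, with 1 mouse left out and under the other settings; rings mark settings in which the probe set passed. No probe set crossed 0, Slc32a1 ran from 0.42 to 0.62, and Pvalb from -1.05 to -0.53.

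The signs of all 11 differences held in each of the 14 settings in which the probe set was tested, while the calls did not. Slc32a1 passed in 3 of 14 settings: with the filter raised to a log2 value of 6 (limma adjusted p = 0.0404, where 3.04% of all probe sets passed), with a robust, trended variance prior (0.0126) and with array weights (0.0191). Both Gad2 probe sets passed with the robust, trended prior, under which 3.56% of all did. Array weights gave control mouse 5 a weight of 6.567 and the others 0.5121 to 0.987, and 5 of the 11 then passed, against 7.89% of all probe sets. A block for the low-18S pair left 0 of the 11 past the threshold, against 2.17% of all, and Slc32a1 had adjusted p = 0.0564.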

How the data were processed

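Total RNA of 6 mice (500 ng per sample) was labelled with an Affymetrix 3′ IVT kit per the labels' protocols, and hybridised to Mouse430_2 arrays. Values were deposited on a log2 scale, each mouse having its own column. The tools given per the submitters' processing notes are GCRMA 2.28.0 and R 2.15.1. GCRMA makes array distributions alike, which hides any shift of total RNA and squeezes values close to the floor. Precision is limited by the number of arrays.

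Of 45101 probe sets, 64 array controls were left out and 25381 (56.4% of the rest) were kept, with a log2 value above 4 on at least 3 arrays. Diets were compared with limma 3.58.1 in R 4.3.3 (lmFit, eBayes, no covariate), using statmod 1.5.0 for the robust prior; plots used Python 3.11.15 and matplotlib 3.10.9. Each mouse is a separate animal. Of the probe sets other than controls, 34945 carry 1 symbol, 932 several and 9160 none; symbols were updated through Entrez identifiers. The ZnR against control test was tried on simulated data built from the observed means and spread: 14, 34, 46 and 48 of 50 probe sets changed by 0.5, 1, 1.5 and 2 log2 units were recovered among 25381, with 4 false calls. The simulated noise was independent between probe sets and had the same spread on every array, whereas the real array weights ran from 0.5121 to 6.567. These recovered and false calls therefore describe the simulated data alone.

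All 9 members were named with every probe set. From each other list the rule named the genes past the threshold or, with fewer than 2, the 2 with the smallest p. Dlx5, Pdxk, Slc6a11, Lhx8, Zeb2, Sox6, Satb1, Sst, Npy and Kcnc1 were added after their values were seen. So were Syt2, Tac1, Reln, Nos1, Kit, Ccdc153, Foxj1 and Ttr. The members, lists and tests were chosen with earlier results of these data known. Markers of astrocytes (1 of 8 rose, against 1.92% of all genes called in either direction) and oligodendrocytes (0 of 7 passed) were also measured. Listed genes without a tested single-gene probe set were not used here.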

Additional observations from a re-analysis of the deposited data

How the results depend on the processing

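No paired analysis was possible because the mouse numbers of the diets are all different. Over all probe sets, the count past the threshold was 373. It was 904 with the robust, trended prior and 2003 with array weights, while leaving out 1 mouse gave 1 (control mouse 5) to 109 (ZnR mouse 7), and leaving out the low-18S pair, an alternative chosen after seeing the data, gave 1. Among the members the count was 0. It was 1 with the filter at a log2 value of 6 (Slc32a1), 3 with the robust, trended prior (Slc32a1 and both Gad2 probe sets), and 5 with array weights (Slc32a1 and 1 probe set each of Gad1, Gad2, Pvalb and Lhx6). Leaving out 1 mouse gave 0 to 1, the 1 being Pvalb without control mouse 1. The cause was not tested. Of 153 single differences in the 14 alternatives, 143 kept their side of the threshold, 10 passed only in the alternative, and none changed sign. The count was within 1.5 times the reported one with no filter, renewed quantile normalization, median centring and the low-18S block, for all probe sets and for the members. Probe sets near the floor limit what can be said of Erbb4.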
